A study of Mus musculus with 2 samples.

Results

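The genes described here are *Tnfsf11*, *Tnfrsf11b*, *Csf1* and *Il34*, chosen by their symbols among the 32285 genes counted in both libraries of the study, and all 4 were found. *Tnfsf11* (ENSMUSG00000022015) lies on chromosome 14 of GRCm38 from 78277445 to 78308043, and *Tnfrsf11b* (ENSMUSG00000063727) on chromosome 15 from 54250619 to 54278484. *Csf1* (ENSMUSG00000014599) lies on chromosome 3 from 107741048 to 107760469, and *Il34* (ENSMUSG00000031750) on chromosome 8 from 110741829 to 110805924. All 4 are protein-coding genes on the minus strand.

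Osteoclasts form from cells of the monocyte lineage when RANKL, the product of *Tnfsf11*, binds its receptor RANK on the precursor. Osteoprotegerin (OPG), the product of *Tnfrsf11b*, is a secreted decoy receptor that binds RANKL and keeps it from RANK, so that the balance of ligand and decoy is used as a measure of the drive to resorb bone. *Csf1* encodes M-CSF, which keeps osteoclast precursors alive through the receptor CSF1R, and *Il34* encodes another ligand of the same receptor. Calcitriol, the active form of vitamin D, is known to raise *Tnfsf11* in cells of the osteoblast lineage.

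The samples were femurs of 7-week-old male C57BL/6J mice, either untreated or given 3 injections of calcitriol at 2.5 μg/kg, with the bones taken 24 h after the last injection. The femurs of 6 mice per group were pooled into 1 library, so that no difference between the groups has a replicate check and no p-value is given. The marrow had been flushed out and the CD45-positive cells depleted before sequencing, which limits what the libraries can hold of marrow and blood cells. The ends of the bones had been cut off as well, and how much of them remained in each pool is not stated. Each value is a count of unique molecular identifiers (UMIs), 1 per captured mRNA molecule, and levels are given as counts per 1000000 UMIs of the cells in question (CPM). Since the counts come from the 3′ ends of transcripts, levels of different genes were compared without division by length. Brackets hold exact 95% intervals, which cover counting error only and not the spread between mice.

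The untreated library held 70266983 UMIs in 6076 barcodes and the calcitriol library 60392557 UMIs in 4562 barcodes, and 8 barcode sequences occurred in both. Haemoglobin transcripts took 41.2% of the untreated UMIs and 10.6% of the calcitriol UMIs. After filtering, 4440 untreated and 3681 calcitriol cells fell into 26 clusters, and red blood cell precursors (erythroid-like) made up 52.0% and 11.8% of them. The clusters were built without the 4 genes and without 30 other genes of the pathway, and were named from marker lists as 15 classes. Levels within another class do not count the erythroid-like cells themselves, whereas levels over a whole library do. The UMI total of each class still includes any haemoglobin transcripts found in its cells.

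Few cells held transcripts of the receptors CSF1R and RANK. *Csf1r* had 15 UMIs in 14 untreated cells and 42 UMIs in 38 calcitriol cells, and *Tnfrsf11a*, which encodes RANK, had 50 and 40 UMIs. Other receptors counted with them were more frequent. *Lgr4* was in 7.70% and 16.9% of the cells, *Sdc1* in 15.2% and 21.2%, and *Ptprz1* in 6.85% and 9.02%. Of the markers of osteoclasts, *Siglec15* had 0 UMIs in both libraries, *Oscar* had 2 and 3, *Calcr* 3 and 3, *Ocstamp* 11 and 5, and *Dcstamp* 3 and 17 UMIs. The other 4 markers of that list were more frequent. *Mmp9* had 98 and 67 UMIs, in 19 and 29 cells, *Atp6v0d2* had 150 and 526 UMIs, in 46 and 167 cells, *Acp5* had 2333 and 1442 UMIs, in 13.6% and 11.3% of the cells, and *Ctsk*, which osteoblasts and fibroblasts also express, was present in 31.9% and 57.9% of the cells. No cluster was named as osteoclast, macrophage or monocyte, and the values that follow describe the source of the signals and not the responding cells.

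*Tnfsf11* UMIs came mainly from 1 class. Of the 744 *Tnfsf11* UMIs in the untreated library, 76.3% lay in periosteal precursor-like cells, a cluster of 293 untreated and 268 calcitriol cells named from *Postn*, *Aspn*, *Cthrc1*, *Col12a1* and *Tnn*. In the calcitriol library 52.1% of 1183 *Tnfsf11* UMIs lay there, followed by 16.9% in chondrocyte-like and 11.3% in osteocyte-like cells. Untreated periosteal precursor-like cells had a level of 108 CPM [99.4, 117], and those of the calcitriol library one of 121 CPM [112, 131]. A UMI of *Tnfsf11* was found in 54.9% [49.1, 60.7] of the untreated and 54.1% [47.9, 60.2] of the calcitriol cells of this class, and no cell held more than 39 of the UMIs. As background, 1 of 2309 untreated and 0 of 434 calcitriol erythroid-like cells held a *Tnfsf11* UMI, at median depths of 10427 and 9865 UMIs against 16566 and 16357 UMIs in the periosteal precursor-like cells. A count of 0 in 434 cells allows a share of up to 0.691%. With each cell thinned to 2000 UMIs, 16.7% and 21.1% of the periosteal precursor-like cells still held a *Tnfsf11* UMI, and no erythroid-like cell did.

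**Figure D1:**
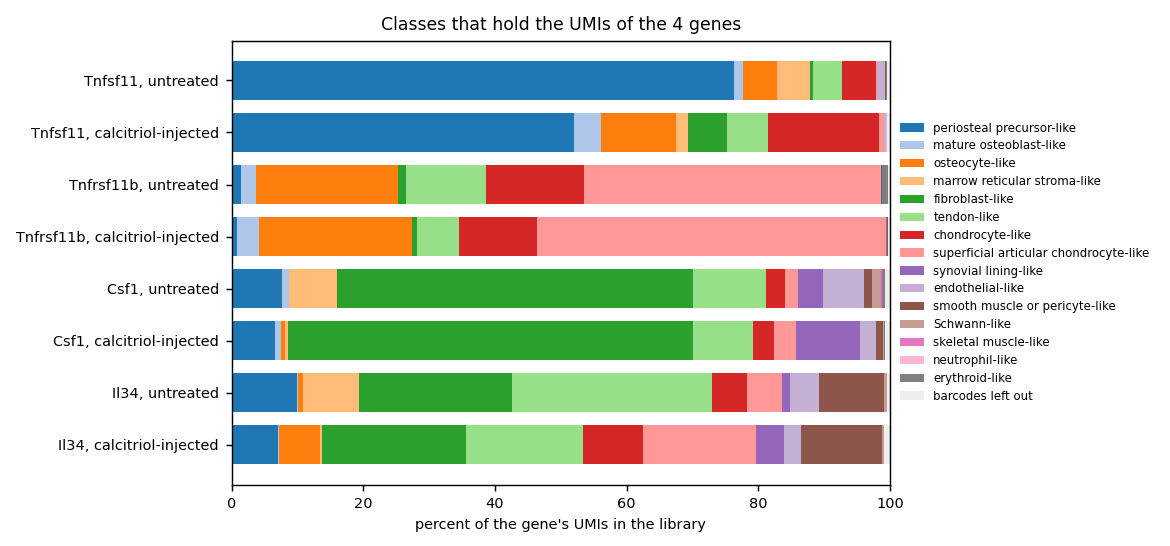
Horizontal stacked bars show, for each gene and library, the percent of the gene's UMIs that lay in each class of cells, and the pale end of a bar holds the barcodes left out by the filters. Most *Tnfsf11* UMIs lay in periosteal precursor-like cells, most *Tnfrsf11b* UMIs in superficial articular chondrocyte-like and osteocyte-like cells, and most *Csf1* UMIs in fibroblast-like cells. Most of the osteocyte-like *Tnfrsf11b* UMIs lay in a part of that class that held little *Mepe*.

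The highest *Tnfsf11* level belonged to the smallest stromal cluster. It held 20 untreated and 2 calcitriol cells, named marrow reticular stroma-like from *Cxcl12*, *Lepr*, *Adipoq*, *Kitl*, *Ebf3* and *Foxc1*, which mark the stromal cells that support blood formation and can become marrow fat. *Tnfsf11* was at 224 CPM [158, 309] in the untreated cells, with 37 UMIs in 11 of the 20 cells, and at 518 CPM [328, 777] in the calcitriol cells, where all 23 UMIs came from 1 cell. *Tnfrsf11b* had 0 UMIs in both libraries, at a limit of 18.2 CPM for the untreated cells. *Csf1* was at 1289 CPM [1122, 1475] in the untreated cells, with UMIs in 18 of 20 cells, and *Il34* at 230.0 CPM [163, 316], with UMIs in 14 of 20. These untreated values of *Csf1*, *Il34* and *Tnfsf11* were each the highest among the 24 clusters with at least 20 cells in that library. With only 2 calcitriol cells, no comparison between the libraries was made for this class.

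Osteocyte-like cells were next for *Tnfsf11* after the reticular and periosteal cells, at 37.7 CPM [26.8, 51.5] without and 55.8 CPM [46.7, 66.1] with calcitriol, and their intervals did not overlap those of the neighbours in the order. Then came a tendon-like cluster led by *Igfbp2* and *Sfrp2* at 18.5 and 30.8 CPM, a chondrocyte-like cluster led by *Col10a1* and *Matn1* at 11.3 and 35.6 CPM, and mature osteoblast-like cells at 7.17 and 30.1 CPM. The intervals of neighbours among these 3 clusters overlapped in both libraries. All 10 untreated *Tnfsf11* UMIs of the endothelial-like class came from 1 cell, which was marked as a doublet. In synovial lining-like, Schwann-like and skeletal muscle-like cells *Tnfsf11* had 0 UMIs in both libraries.

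*Tnfrsf11b* had another distribution. Superficial articular chondrocyte-like cells, named from *Prg4*, *Cytl1*, *Cilp* and *Creb5* and known for the lubricating surface of joints, accounted for 45.1% of 11164 UMIs in the untreated library and 53.1% of 22377 in the calcitriol library. They made up 5.05% of the untreated and 16.8% of the calcitriol cells, and their share of the UMIs moves with this number. Osteocyte-like cells held 21.6% and 23.2%, although they made up 1.80% and 5.05% of the cells. Of their 2409 and 5186 UMIs, 2082 and 4495 lay in a part that held little *Mepe*, described below. The part that held *Mepe* and *Dmp1* had 311 and 691. The level was highest in the osteocyte-like cluster taken as a whole, at 2328 CPM [2235, 2422] without and 2159 CPM [2101, 2218] with calcitriol, and next in the superficial articular chondrocyte-like cells, at 1421 CPM [1382, 1461] and 1190 CPM [1169, 1212]. The order rests on a part of the osteocyte-like cells that held little *Mepe*, since the part that held *Mepe* and *Dmp1* was at 1370 and 782 CPM, with an interval that overlapped that of the superficial cells in the untreated library and lay below it in the calcitriol library. A tendon-like cluster led by *Angptl7* and *Kera* followed at 556 and 447 CPM. The 3 chondrocyte-like clusters lay between 154 and 301 CPM in the untreated library and between 112 and 338 CPM in the calcitriol library. In periosteal precursor-like cells, where *Tnfsf11* was most abundant, *Tnfrsf11b* was at 31.2 CPM [26.6, 36.4] and 39.1 CPM [33.9, 44.9]. Erythroid-like cells had 3.79 and 3.42 CPM as background, with 51 of their 96 untreated UMIs in 1 cell. Cells marked as doublets held 81 of these 96 UMIs, and 0 of the 14 calcitriol UMIs. A *Tnfrsf11b* UMI was in 19 of 2309 untreated and 13 of 434 calcitriol erythroid-like cells, so the likeness of the 2 levels rests on the doublets.

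*Csf1* was spread over the fibroblastic classes. Fibroblast-like cells, named from 10 markers that include *Pdgfra*, *Ly6a*, *Pi16* and *Dpp4*, accounted for 54.1% of 2940 UMIs in the untreated library and 61.6% of 5887 in the calcitriol library. They contained *Csf1* at 296 CPM [282, 311] and 409 CPM [396, 423], with a UMI in 70.4% and 72.1% of the cells. Synovial lining-like cells had 234 CPM [192, 282] and 243 CPM [223, 264], with a UMI in 20 of 25 and 85 of 94 cells. Tendon-like, endothelial-like and smooth muscle or pericyte-like cells lay between 47.1 and 84.5 CPM in both libraries. The lowest levels outside the blood cells were in osteocyte-like cells, at 2.90 and 16.2 CPM, and in chondrocyte-like cells, at 13.0 and 16.5 CPM. Erythroid-like cells had 0.514 and 0.488 CPM. Schwann-like cells had 356 and 49.1 CPM, but 29 of their 35 untreated UMIs came from 1 of 17 cells, which was marked as a doublet.

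*Il34* was the scarcest of the 4 genes, with 444 untreated and 667 calcitriol UMIs. Apart from the reticular stroma, its level was highest in smooth muscle or pericyte-like cells, the contractile cells of vessel walls, at 77.7 CPM [56.4, 104] and 106 CPM [84.4, 132], with a UMI in 51.1% and 45.7% of the cells. A tendon-like cluster led by *Chodl* and *Mstn* was next, at 44.4 and 28.0 CPM, and its intervals overlapped those of the tendon-like cluster led by *Igfbp2* and *Sfrp2*, at 34.5 and 23.3 CPM. Fibroblast-like cells were at 19.2 and 16.5 CPM. No erythroid-like cell of either library held an *Il34* UMI, which allows up to 0.119 CPM without and 0.732 CPM with calcitriol.

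**Figure D2:**
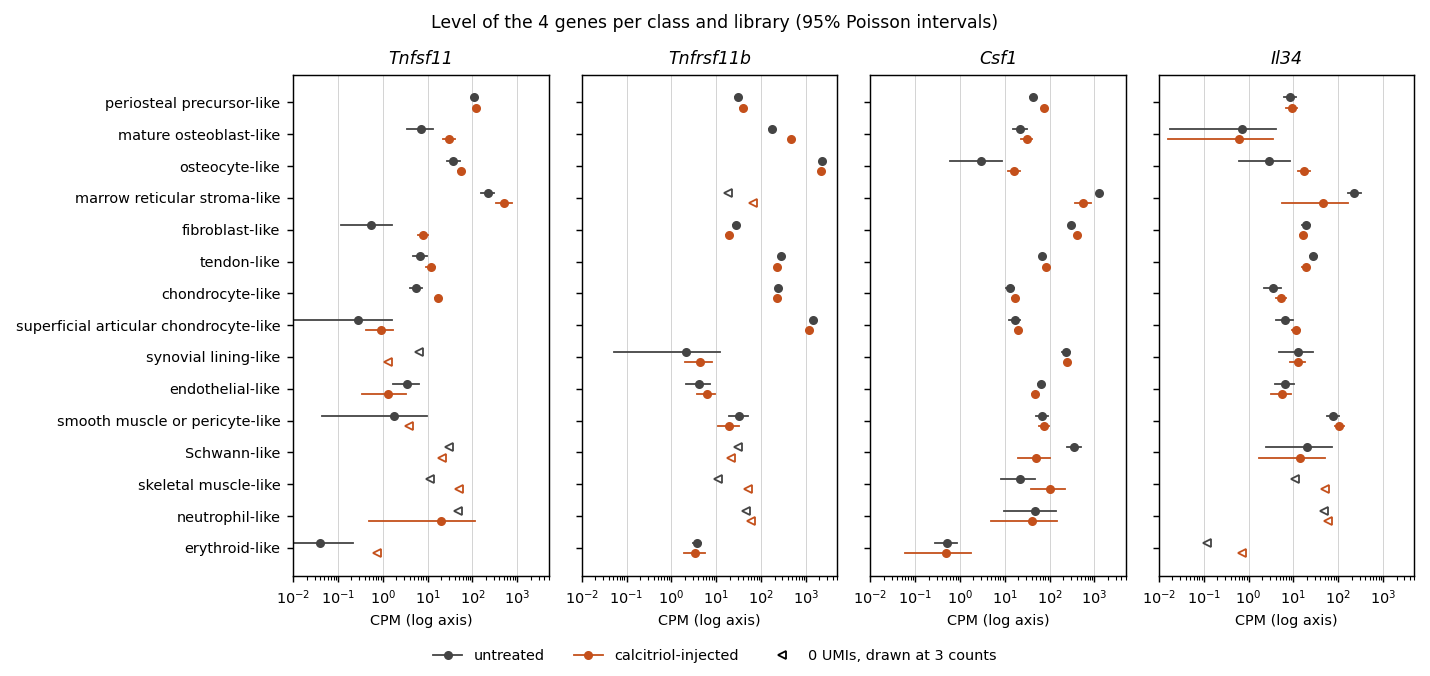
Points show the level of each gene in CPM on a log axis for 15 classes and both libraries, with lines for 95% Poisson intervals and open triangles for 0 UMIs, drawn at the level of 3 counts. *Tnfsf11* peaks in reticular stroma and periosteal precursor-like cells, *Tnfrsf11b* in osteocyte-like cells taken as a whole and superficial articular chondrocyte-like cells, *Csf1* in reticular stroma, fibroblast-like and synovial lining-like cells, and *Il34* in reticular stroma and smooth muscle or pericyte-like cells.

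Across the 26 clusters, with both libraries summed, the levels of *Csf1* and *Il34* had a Pearson r of 0.77 on the scale log2(CPM + 10), those of *Tnfsf11* and *Il34* 0.50, and those of *Tnfsf11* and *Tnfrsf11b* 0.22. The genes whose pattern was most like that of *Tnfsf11* were *Podnl1*, *Mmp13*, *Pdzrn4*, *Dlx6* and *Grem1*, with r from 0.86 to 0.90. For *Tnfrsf11b* they were *Lgr6*, *Ank*, *Serp2*, *D630045J12Rik* and *Ecrg4*, with r from 0.89 to 0.91. *Mpdz*, *Fstl1*, *Dzip1*, *Arhgap35* and *Sumf1* were nearest to *Csf1*, with r from 0.91 to 0.93, and *Zfp512b*, *Id4*, *Fam222a*, *Nhs* and *Gm12122* to *Il34*, with r from 0.88 to 0.91. The clusters share 2 libraries and differ in depth, so these correlations are descriptions.

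The balance of ligand and decoy was taken as the percent of *Tnfsf11* among the UMIs of *Tnfsf11* and *Tnfrsf11b*, which does not depend on the total of a class. Only 2 classes with at least 20 such UMIs in each library had more ligand than decoy. Those were the marrow reticular stroma-like cells, with 37 and 23 *Tnfsf11* UMIs against 0, and the periosteal precursor-like cells, with 77.6% [74.4, 80.6] in the untreated and 75.6% [72.5, 78.5] in the calcitriol library. All other such classes of the untreated library lay at 3.94% or below, except the endothelial-like class, whose ligand came from 1 marked doublet. The superficial articular chondrocyte-like cells were at the far end, with 1 *Tnfsf11* UMI to 5034 of *Tnfrsf11b* in the untreated and 9 to 11877 in the calcitriol library. In the periosteal precursor-like class a *Tnfrsf11b* UMI was found in 14.3% of the untreated cells with *Tnfsf11* and in 16.7% of those without, and in 17.2% and 26.8% in the calcitriol library. In the osteocyte-like class all 10 untreated cells with *Tnfsf11* also held *Tnfrsf11b*, as did 80% of those without, and in the calcitriol library the shares were 91.2% and 88.8%.

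**Figure D3:**
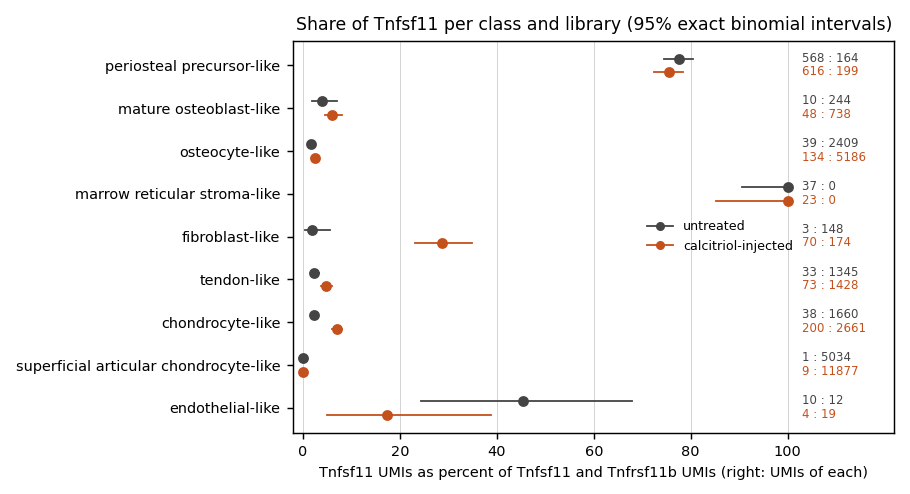
Points show *Tnfsf11* as percent of the UMIs of *Tnfsf11* and *Tnfrsf11b* for the classes with at least 20 UMIs of both genes together in each library, with 95% exact binomial intervals and the UMIs of both genes at the right. The periosteal precursor-like class stayed between 75.6% and 77.6%, whereas the fibroblast-like class was at 1.99% in the untreated and 28.7% in the calcitriol library.

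Calcitriol was compared with no treatment within each class, to ask whether the ligand, the decoy or both differed. *Tnfsf11* was at least 2-fold higher after calcitriol in 3 of the classes compared, against 1 for each other member. Of all genes tested in the classes with such a member, between 2.91% and 5.08% were at least 2-fold higher. Some of these calls did not hold under other settings, as described below. Because of this count, the promoters of *Tnfsf11* and *Csf1* are shown, the members with an entry in the RefSeq promoter table (build GRCm38.p6). They were searched on both strands, from 250 bases before to 50 bases after the start, for the half-site AGGTCA of the vitamin D receptor, for the variants with GGGTCA, with GGTTCA or with AGTTCA in its place, for a direct repeat of AGGTCA with 3 bases between, for TATAAA and for the RUNX core TGTGGT. The 250 bases before the start are printed 5′ to 3′, with any motif found in capitals.
Tnfsf11, minus strand, chr14:78308044-78308293: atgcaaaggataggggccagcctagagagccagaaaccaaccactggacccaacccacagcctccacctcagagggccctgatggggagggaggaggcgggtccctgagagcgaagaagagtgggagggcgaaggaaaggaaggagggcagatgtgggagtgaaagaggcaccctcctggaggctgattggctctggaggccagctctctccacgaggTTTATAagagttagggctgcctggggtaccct
Csf1, minus strand, chr3:107760470-107760719: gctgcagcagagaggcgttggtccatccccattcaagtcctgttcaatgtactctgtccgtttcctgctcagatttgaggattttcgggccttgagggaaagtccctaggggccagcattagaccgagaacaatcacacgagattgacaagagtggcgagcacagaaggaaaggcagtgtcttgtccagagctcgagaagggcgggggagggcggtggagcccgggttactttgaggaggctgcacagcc
The capitals mark TATAAA on the reverse strand, 32 bases before the *Tnfsf11* start, a motif present in 13.6% of the 32851 promoters of the table. A GGTTCA half-site, present in 10.4% of the promoters, began 44 bases after that start on the reverse strand. The other half-sites were in 13.7% to 16.3% of the promoters, TGTGGT in 16.8% and the repeat in 2 of them. None of the 7 motifs was found in the *Csf1* window.

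In periosteal precursor-like cells, the class with most of the ligand, *Tnfsf11* differed little between the libraries. The log2 ratio of calcitriol over untreated was 0.16 [-0.00, 0.33] for *Tnfsf11*, from 568 and 616 UMIs, and 0.32 [0.02, 0.63] for *Tnfrsf11b*, from 164 and 199 UMIs. The balance shifted by -0.16 [-0.51, 0.19] on the log2 scale of the UMI ratio. *Csf1* differed most, from 42.6 to 76.6 CPM, with a log2 ratio of 0.85 [0.60, 1.09]. None of the 4 genes passed 2-fold, where 3.20% of the 9354 genes with at least 50 UMIs were at least 2-fold higher and 2.99% at least 2-fold lower. *Spp1*, a known target of vitamin D, was at 5954 CPM and 32097 CPM in the same cells, and *Vdr*, the vitamin D receptor, at 17.7 CPM and 49.1 CPM. At a finer clustering (resolution 1.2 in place of 0.8) the class fell into a larger part led by *Postn* and *Tnn*, with a balance of 88.3% [85.3, 90.9] and 87.2% [84.2, 89.8], and a smaller part led by *Tnc* and *Hpgd*, with 46.7% [39.2, 54.2] and 43.8% [37.1, 50.7]. The decoy was at 97.6 and 154 CPM in the smaller part, against 15.1 and 17.9 CPM in the larger part, and *Spp1* was at 23046 and 87834 CPM against 1974 and 22064 CPM. *Cyp24a1*, another known target of vitamin D, did not follow *Spp1*. It had 0 UMIs in both libraries in the larger part, and 0 and 1 UMIs in the smaller part. *Spp1* was also higher in the fibroblast-like part led by *Mfap5* and *Fbn1*, at 16.9 and 861 CPM, where *Vdr* had 0 and 11 UMIs. With 20 principal components or at resolution 0.5 the periosteal precursor-like class took in the mature osteoblast-like cells, all but 1 of them in the former case. Its balance was then 59.5% and 41.7% or 57.7% and 41.5%. The *Csf1* ratio was -0.40 when each cell was thinned to 2000 UMIs.

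In mature osteoblast-like cells, named from *Bglap*, *Bglap2*, *Sp7*, *Runx2*, *Ifitm5* and others, both ligand and decoy were higher after calcitriol. *Tnfsf11* was at 7.17 CPM [3.44, 13.2] in the 52 untreated cells, with UMIs in 5 of them, and at 30.1 CPM [22.2, 39.9] in the 60 calcitriol cells, with UMIs in 16. *Tnfrsf11b* was at 175 CPM [154, 198] and 463 CPM [430, 497], and 134 of its 738 calcitriol UMIs came from 1 cell. The log2 ratios were 2.07 [1.07, 3.22] and 1.40 [1.19, 1.62], both past 2-fold, as were 3.74% of the 5211 genes tested in this class, with 2.55% at least 2-fold lower. Since both genes were higher, the balance of 3.94% [1.90, 7.12] and 6.11% [4.54, 8.02] had overlapping intervals. *Bglap* itself was at 37765 and 11918 CPM in these cells, so that the class differed between the libraries in its defining gene, and 7 of the 9 markers of mature osteoblasts were not higher after calcitriol, with a summed level of 128984 and 66940 CPM. Of the 5 osteocyte markers 4 were higher, with a summed level of 931 and 2290 CPM and *Sost* at 0 in both libraries. *Mepe* among them was at 0.717 and 296 CPM, with UMIs in 1 of the 52 untreated and 6 of the 60 calcitriol cells. *Mmp13*, a collagenase of hypertrophic chondrocytes and bone cells, was at 310 and 1250 CPM, with UMIs in 8 and 19 cells. Of the 10 and 48 *Tnfsf11* UMIs, only 1 and 5 lay in cells without a UMI of *Mepe* or *Mmp13*, which were 43 of the 52 untreated and 37 of the 60 calcitriol cells. These are too few UMIs for a ratio, and the ratio of *Tnfrsf11b* in the same cells was 1.63. *Mmp13* was among the genes most like *Tnfsf11* across the clusters, with r of 0.88. Leaving out its cells, a choice made after seeing the data, thus cannot show which cell type the *Tnfsf11* UMIs came from. The part of the other bone cell markers in the ratios of the class was not tested further. Of the 10 untreated *Tnfsf11* UMIs, 6 came from 1 cell, and without the cell with the most UMIs in each library the ratio was 3.10. At the finer clustering these 52 and 60 cells stayed together in 1 cluster. Under 5 other settings for clustering or filtering, where the class of that name also took in between 30 and 60 periosteal precursor-like cells of each library, the *Tnfsf11* ratio lay between 0.36 and 0.89. At resolution 1.2 it also took in 56 untreated and 117 calcitriol osteocyte-like cells. In the 4 other settings the balance lay between 18.4% and 20.8% in the untreated and between 14.7% and 15.9% in the calcitriol cells, the opposite order.

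In the osteocyte-like class taken as a whole the ligand was slightly higher and the decoy about equal, and its parts gave other values. In the part led by *Mepe* and *Dmp1* and the larger part, both described below, the log2 ratio of *Tnfsf11* was -0.05 and 0.13. The former ratio rests on 31 untreated UMIs, 19 of them in 1 cell, so it cannot show that the ligand was unchanged in that part. That of *Tnfrsf11b* was -0.81 and 0.15. *Tnfsf11* had 39 UMIs in 10 of 80 untreated cells and 134 UMIs in 34 of 186 calcitriol cells, a log2 ratio of 0.57 [0.04, 1.12]. *Tnfrsf11b* had 2409 and 5186 UMIs, a log2 ratio of -0.11 [-0.18, -0.04] that was above 0 under 5 other settings, at 0.13 or less. The balance was 1.59% [1.14, 2.17] and 2.52% [2.11, 2.98]. *Csf1* and *Il34* had 3 UMIs each in the untreated cells, and 39 and 42 UMIs in the calcitriol cells, with log2 ratios of 2.49 [0.83, 4.82] and 2.59 [0.95, 4.93]. Both were past 2-fold, but both had fewer UMIs than were required of the 5611 genes tested in this class. Of those genes 5.08% were at least 2-fold higher and 2.87% at least 2-fold lower. These shares thus cannot show how often genes with as few UMIs as *Csf1* and *Il34* pass 2-fold. Of the 39 *Csf1* UMIs, 22 came from 1 cell, and the *Csf1* ratio was between -0.15 and -0.04 under 4 other clusterings. The *Il34* ratio was between 1.81 and 4.11 under the other settings. Of the 39 untreated *Tnfsf11* UMIs, 19 came from 1 cell, and without the top cell of each library the *Tnfsf11* ratio was 1.25.

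The osteocyte-like class was not uniform. At the finer clustering it fell into a part led by *Mepe*, *Dmp1*, *Phex* and *Sost*, with 24 untreated and 69 calcitriol cells, and a larger part of 53 and 117 cells led by *Tnfrsf11b* and *Spp1*. The larger part had *Mepe* at 7.67 and 13.8 CPM, with *Ibsp* at 27055 and 27738 CPM and *Col2a1* at 13492 and 5034 CPM, so that the name osteocyte-like rests on the smaller part, where *Mepe* was at 1974 and 5169 CPM and *Sost* at 313 and 398 CPM. In the part with *Mepe* and *Dmp1*, *Tnfsf11* was at 137 CPM [92.8, 194] and 132 CPM [110, 159], and the intervals overlapped those of the periosteal precursor-like cells. The untreated level rests on 31 UMIs in 6 of the 24 cells, 19 of them in 1 cell. The calcitriol level rests on 117 UMIs in 28 of the 69 cells. *Tnfrsf11b* was lower there after calcitriol, at 1370 CPM [1222, 1532] and 782 CPM [725, 843], a log2 ratio of -0.81. The balance in this part was 9.06% [6.24, 12.6] and 14.5% [12.1, 17.1]. *Il34* had 0 UMIs in the 24 untreated cells, which allows 13.2 CPM, and 41 UMIs in 14 of the 69 calcitriol cells, a log2 ratio of at least 1.81 against that limit. In the larger part *Tnfsf11* was at 10.2 and 11.2 CPM, *Tnfrsf11b* at 2660 and 2960 CPM, and the balance at 0.383% and 0.377%. A choice of cells from all clusters by UMIs of at least 2 of *Dmp1*, *Mepe* and *Phex* gave 53 untreated and 107 calcitriol cells. *Tnfsf11* was at 33.5 and 73.0 CPM in them, *Tnfrsf11b* at 884 and 968 CPM, and the balance at 3.65% and 7.01%. The log2 ratio of *Tnfsf11* was thus 0.57 in the class, -0.05 [-0.63, 0.58] in its part with *Mepe* and *Dmp1* and 1.12 in the cells chosen by UMIs. The balance was higher in the calcitriol library by each of these 3 choices, but not in the larger part. The choices share cells, since 26 of the 53 untreated and 72 of the 107 calcitriol cells chosen by UMIs were in the class.

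**Figure D4:**
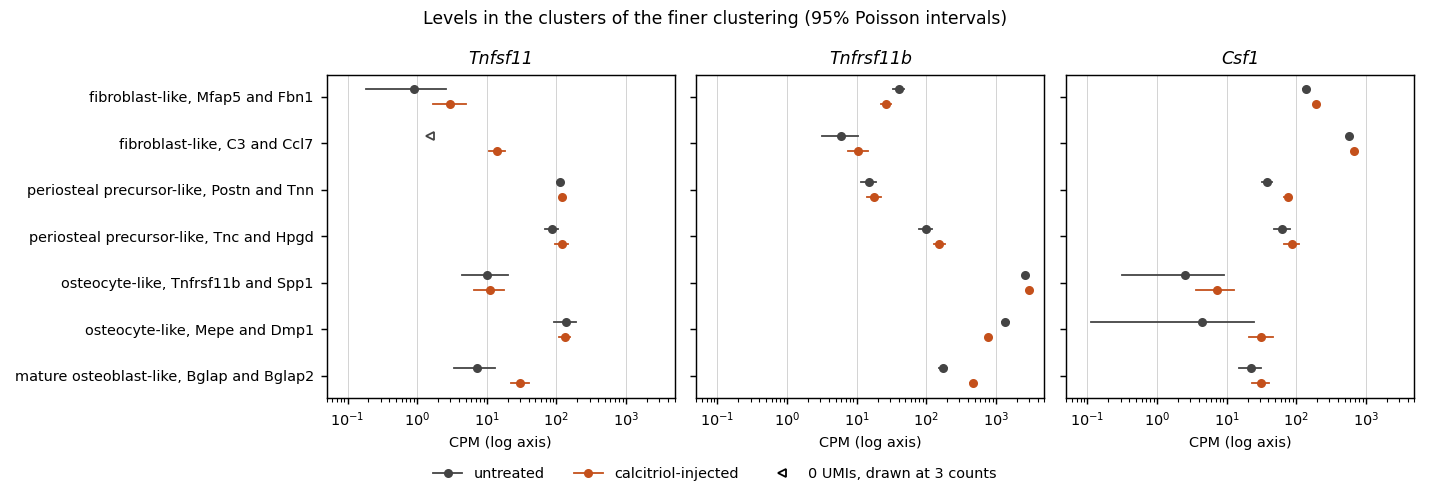
Points show *Tnfsf11*, *Tnfrsf11b* and *Csf1* in CPM on a log axis with 95% Poisson intervals in the clusters of the finer clustering, each named by the class it came from and its 2 leading genes, and the open triangle stands for 0 UMIs, drawn at the level of 3 counts. The osteocyte-like part led by *Mepe* and *Dmp1* held *Tnfsf11* at 137 and 132 CPM, and the part led by *Tnfrsf11b* and *Spp1* at 10.2 and 11.2 CPM. Of the 31 untreated UMIs behind the 137 CPM, 19 came from 1 cell.

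In chondrocyte-like cells *Tnfsf11* was higher after calcitriol while *Tnfrsf11b* was nearly the same. *Tnfsf11* had 38 UMIs in 12 of 237 untreated cells and 200 UMIs in 49 of 458 calcitriol cells, at 5.60 CPM [3.96, 7.69] and 17.2 CPM [14.9, 19.8]. The log2 ratio of 1.62 [1.12, 2.16] was above that of 98.6% of the 10369 genes tested, of which 3.90% were at least 2-fold higher and 3.84% at least 2-fold lower. *Tnfrsf11b* was at 245 and 229 CPM, with a log2 ratio of -0.09 [-0.18, -0.00] that was above 0 under 3 other settings, and the balance was 2.24% [1.59, 3.06] and 6.99% [6.08, 7.99]. Most of these *Tnfsf11* UMIs lay in the cluster led by *Col10a1*, the collagen of hypertrophic chondrocytes, which precede bone in the growth plate. There, 33 UMIs in 8 of 74 untreated cells stood against 153 UMIs in 32 of 113 calcitriol cells, a log2 ratio of 1.66 [1.11, 2.25], and the balance was 3.61% and 12.7%, with intervals that did not overlap. Under 4 other clusterings, 18 or 19 of the 237 untreated chondrocyte-like cells, with 31 of the 38 UMIs, fell in the osteocyte-like class. So did 22 to 25 of the calcitriol cells, with 63 to 68 of the 200 UMIs. Most of the untreated *Tnfsf11* UMIs thus lay in cells whose class moved with the clustering. The chondrocyte-like class then had an untreated balance between 0.380% and 0.582%, and the log2 ratio of *Tnfsf11* lay between 3.41 and 3.45. The cluster led by *Serpina1a* had 0 and 16 *Tnfsf11* UMIs. The cluster led by *Chil1* and *Notum* had 5 and 31 UMIs, with a log2 ratio of 1.35 [-0.03, 3.07]. Thinned to 2000 UMIs, 1.28% of the untreated and 3.52% of the calcitriol chondrocyte-like cells held a *Tnfsf11* UMI, against 5.06% and 10.7% without thinning. In superficial articular chondrocyte-like cells *Tnfsf11* stayed near its floor, and *Tnfrsf11b* had a log2 ratio of -0.26 [-0.30, -0.21]. *Il34* was at 6.49 and 11.4 CPM in them, with a log2 ratio of 0.82 [0.16, 1.53] that was -0.26 after thinning, where 3.11% of 9189 genes were at least 2-fold higher and 3.24% at least 2-fold lower.

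The fibroblast-like cells gave the widest ratio. *Tnfsf11* had 3 UMIs, 1 in each of 3 of 439 untreated cells, and 70 UMIs in 34 of 666 calcitriol cells, with at most 9 UMIs in a cell. The levels were 0.559 CPM [0.115, 1.63] and 7.90 CPM [6.16, 9.98], a log2 ratio of 3.82 [2.22, 6.13], which was above that of 99.9% of 10130 genes, of which 2.91% were at least 2-fold higher and 3.14% at least 2-fold lower. It lay between 3.68 and 4.21 under the other settings. The calcitriol level had an interval that overlapped that of the untreated mature osteoblast-like cells and lay below that of the periosteal precursor-like cells. *Tnfrsf11b* was at 27.6 and 19.6 CPM, with a log2 ratio of -0.49 [-0.81, -0.16], and the balance was 1.99% [0.412, 5.70] and 28.7% [23.1, 34.8]. Of the 174 calcitriol UMIs of *Tnfrsf11b*, 72 lay in cells marked as doublets, and without those cells the ratio of *Tnfrsf11b* was -1.23. *Csf1* had a log2 ratio of 0.47 [0.38, 0.55], and *Il34* one of -0.22 [-0.59, 0.16]. At the finer clustering, 55 of the *Tnfsf11* UMIs lay in a part led by *C3* and *Ccl7*, with *Cxcl1*, *Ccl2* and *Ptx3* among its leading genes, which are genes of inflammation. This part held 187 untreated cells with 0 *Tnfsf11* UMIs, which allows 1.51 CPM, and 330 calcitriol cells with 14.2 CPM [10.7, 18.4] from 25 cells, a log2 ratio of at least 3.23 against that limit. Its balance was 57.3% [46.8, 67.3] in the calcitriol library, and 0 of 12 UMIs in the untreated library were of *Tnfsf11*. It also had the higher *Csf1* level, at 569 and 689 CPM, against 137 and 191 CPM in the part led by *Mfap5* and *Fbn1*. In the latter *Tnfsf11* had 3 and 15 UMIs. The marker lists of bone and cartilage cells did not move in 1 direction between the libraries in the fibroblast-like cells. Of the 5 osteocyte markers, *Dmp1*, *Mepe*, *Phex* and *Irx5* were higher after calcitriol, and the list had a summed level of 19.7 and 42.8 CPM. Of the 4 markers of hypertrophic chondrocytes, *Col10a1* and *Mmp13* were higher, and the list had 4.28 and 20.9 CPM, with *Mmp13* at 2.42 and 15.5 CPM. *Sost*, *Ihh* and *Panx3* had 0 UMIs in the untreated and 2 each in the calcitriol cells, under the limit of 3 counts. Of the mature osteoblast markers 3 of 9 were higher, with 5184 and 3647 CPM, and of the periosteal precursor markers 2 of 5, with 1642 and 1378 CPM. *Dmp1* had 3 and 73 UMIs, in 3 and 10 cells, *Mepe* 1 and 50 UMIs, in 1 and 5 cells, and *Mmp13* 13 and 137 UMIs, in 9 and 52 cells. In the cells without a UMI of *Mepe* or *Mmp13*, *Tnfsf11* had 3 and 59 UMIs and a log2 ratio of 3.74, and without marked doublets the ratio was 3.68. Whether free RNA of bone cells contributes to it was not tested.

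Tendon-like cells had *Tnfsf11* at 6.83 and 11.6 CPM, a log2 ratio of 0.77 [0.16, 1.41], with 29 of 33 untreated and 62 of 73 calcitriol UMIs in the cluster led by *Igfbp2* and *Sfrp2*. In that cluster *Tnfrsf11b* was also higher, at 26.2 and 74.4 CPM, a log2 ratio of 1.51 [1.00, 2.04], and the balance was 41.4% [29.8, 53.8] and 29.2% [23.2, 35.9]. Over the whole tendon-like class the balance ran the other way, at 2.39% [1.65, 3.35] and 4.86% [3.83, 6.08], a shift of 1.06 [0.44, 1.71] on the log2 scale. Without integration of the libraries, 119 untreated and 129 calcitriol tendon-like cells fell in the periosteal precursor-like class. They held 31 of the 33 and 62 of the 73 *Tnfsf11* UMIs, so most of these UMIs lay in cells whose class moved with the clustering. The other 2 tendon-like clusters had lower *Tnfrsf11b* after calcitriol, with log2 ratios of -0.31 [-0.43, -0.20] and -1.17 [-1.59, -0.74]. *Csf1* had a log2 ratio of 0.34 [0.14, 0.54] in the class, which was -0.15 without integration of the libraries, -0.060 as a mean over cells and -0.25 after thinning, and *Il34* one of -0.57 [-0.94, -0.20], which was 0.07 after thinning, where 2.95% of 9591 genes were at least 2-fold higher and 4.11% at least 2-fold lower. In endothelial-like cells *Csf1* had a log2 ratio of -0.42 [-0.75, -0.10]. In smooth muscle or pericyte-like cells the ratio of *Il34* was 0.45 [-0.09, 1.01], and in synovial lining-like cells that of *Csf1* was 0.06 [-0.24, 0.36].

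**Figure D5:**
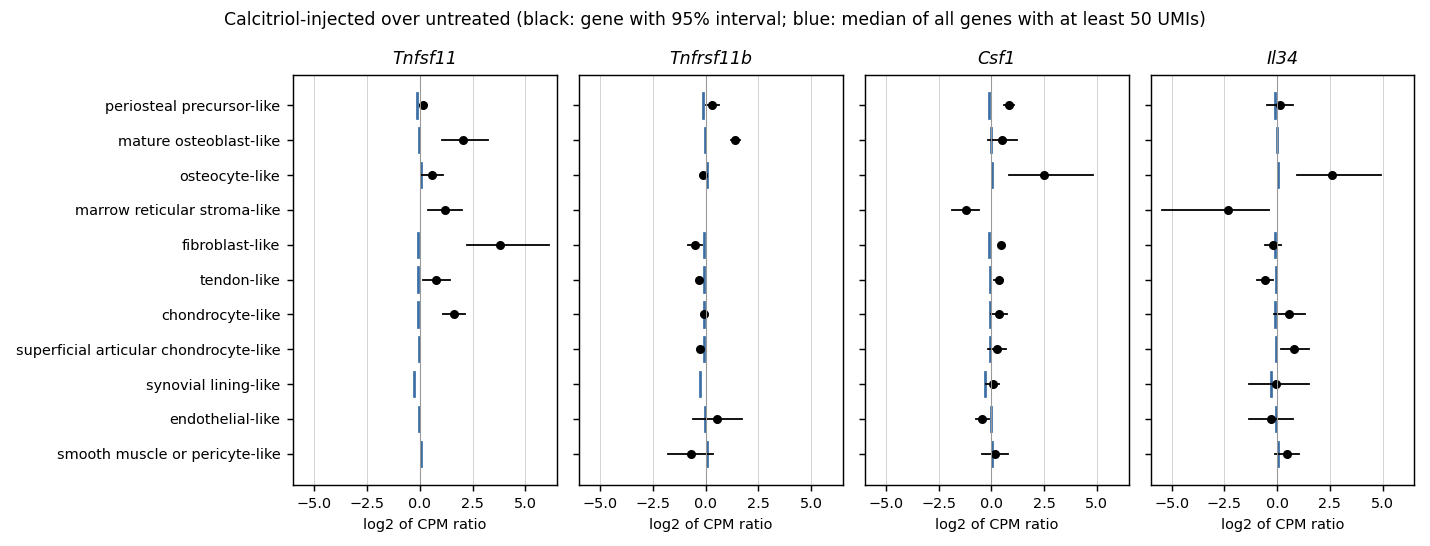
Black points show the log2 ratio of CPM, calcitriol over untreated, for each gene and class with at least 20 UMIs in both libraries together, with 95% intervals, and blue marks show the median of all genes with at least 50 UMIs in the class. The Schwann-like and erythroid-like classes are not drawn, with log2 ratios of -2.86 for *Csf1* and -0.15 for *Tnfrsf11b*. The latter lay between -0.19 and 2.49 under the other settings. *Tnfsf11* lies above the blue mark in each class that has one, from 0.16 in periosteal precursor-like to 3.82 in fibroblast-like cells, and *Tnfrsf11b* lies on both sides. The points of the marrow reticular stroma-like class rest on 2 calcitriol cells and have no blue mark.

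Over whole libraries *Tnfsf11* was at 10.6 and 19.6 CPM and *Tnfrsf11b* at 159 and 371 CPM, and *Csf1* at 41.8 and 97.5 CPM. These totals move with the shares of erythroid-like cells and of the other classes, and the part of treatment and of composition in them cannot be told apart. Within the classes with most *Tnfrsf11b* UMIs its log2 ratios were -0.26 (superficial articular chondrocyte-like), -0.11 (osteocyte-like), -0.09 (chondrocyte-like) and -0.29 (tendon-like). Mature osteoblast-like and periosteal precursor-like cells had 1.40 and 0.32. The median log2 ratio of all genes tested lay between -0.28 and 0.05 in the classes described, and at -0.85 in the erythroid-like class.

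The 30 other genes of the pathway were counted in 7 classes. At least 2-fold higher after calcitriol were 3 of 13 tested genes in mature osteoblast-like, 3 of 16 in osteocyte-like, 2 of 20 in periosteal precursor-like, 3 of 19 in chondrocyte-like and 2 of 19 in fibroblast-like cells, and at least 2-fold lower were 0, 2, 0, 2 and 3. Of all genes tested in the same classes, 3.74%, 5.08%, 3.20%, 3.90% and 2.91% were at least 2-fold higher and 2.55%, 2.87%, 2.99%, 3.84% and 3.14% at least 2-fold lower. Their median log2 ratios were 0.28, 0.32, 0.17, 0.19 and -0.11, against -0.02, 0.05, -0.12, -0.09 and -0.09 for all genes tested in the class. In superficial articular chondrocyte-like cells 3 of 15 were higher and 0 lower, and in tendon-like cells 3 of 21 were higher and 1 lower, where 3.11% and 2.95% of all genes were higher and 3.24% and 4.11% lower. Among the receptors that lie upstream of *Tnfsf11*, *Vdr* was past 2-fold in periosteal precursor-like, mature osteoblast-like and osteocyte-like cells, with log2 ratios of 1.47, 1.39 and 1.26. *Osmr*, which encodes the oncostatin M receptor, had 1.06 in mature osteoblast-like cells, and *Lifr*, a receptor for LIF, had 1.91 in fibroblast-like, 1.57 in tendon-like and 1.52 in superficial articular chondrocyte-like cells. *Pth1r*, the receptor of parathyroid hormone, had -1.09 in fibroblast-like cells, and *Ptger4*, a prostaglandin E receptor, had 1.01 in chondrocyte-like and 1.29 in superficial articular chondrocyte-like cells.

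Among the cytokines, *Il6* was at 204 and 423 CPM in fibroblast-like cells, a log2 ratio of 1.05 [0.95, 1.15]. *Il11* was at 135 and 18.7 CPM in osteocyte-like cells, with -2.85 [-3.37, -2.36], and at 3.24 and 17.3 CPM in periosteal precursor-like cells, with 2.42 [1.66, 3.26], and had 1.33 in tendon-like cells. *Pthlh*, which encodes parathyroid hormone-related protein, had a log2 ratio of -1.37 in fibroblast-like, 1.07 in chondrocyte-like and 2.09 in superficial articular chondrocyte-like cells. *Wnt5a* had -1.14 in fibroblast-like and -1.25 in chondrocyte-like cells. *Mmp14*, a protease that sheds RANKL from the cell surface, was at 62.8 and 232 CPM in osteocyte-like cells, with 1.88 [1.51, 2.28], and had -1.06 in chondrocyte-like cells. *Lgr4*, another receptor of RANKL, had 1.87 in osteocyte-like and 1.16 in mature osteoblast-like cells. Of the secreted inhibitors, *Wnt16* had -1.25 in osteocyte-like cells and -2.03 in tendon-like cells, and *Sfrp1* had 1.64 in chondrocyte-like and 2.22 in tendon-like cells. *Tnfsf10*, the other ligand of OPG, reached 50 UMIs only in endothelial-like cells, at 22.3 and 17.3 CPM.

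Other differences between the libraries ran beside those of the 4 genes. A list of 9 glucocorticoid-response genes had median log2 ratios of 0.71 in periosteal precursor-like, 0.88 in mature osteoblast-like, 1.40 in osteocyte-like, 1.00 in chondrocyte-like and 1.13 in fibroblast-like cells. At least 2-fold higher were 2 of 9, 4 of 8, 6 of 9, 5 of 9 and 5 of 9 of them, against 3.20%, 3.74%, 5.08%, 3.90% and 2.91% of all genes. For 10 immediate early genes the medians were 0.31, 0.25, 0.53, 0.72 and 0.01 in the same classes. The medians of all genes tested in these classes were -0.12, -0.02, 0.05, -0.09 and -0.09. Both lists were set together with the pathway lists, and their values are descriptions. The part of these differences in the ratios of the 4 genes was not tested.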

How the data were processed

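The femurs of 6 mice per group were pooled and made into 1 single-cell 3′ library each. The authors deposited filtered matrices of UMI counts per gene and barcode, made with Cell Ranger 4.0.0 on the mouse build mm10, with no normalization (the submitters' processing notes also name Seurat 3.2.2). Depth was 70266983 UMIs in the untreated and 60392557 in the calcitriol library.

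Barcodes with at least 200 genes were kept. After the study's rule, clusters of a library past all 3 limits (mitochondrial share over 10%, median under 1000 genes, median under 2000 UMIs) were left out, 1 in each library. The cells were integrated by anchors and clustered in Seurat 5.3.0 (R 4.3.3) with 2000 variable genes, less the 34 genes described, 30 principal components and resolution 0.8. A cluster was named as the class with the largest share of its marker list counted, and at least 3 markers. A marker was counted when it was in at least 10% of the cells, at least 2-fold over the other clusters with 10 CPM added to each, and had at least 50 UMIs. This scoring was set after the clusters were seen. Doublets, barcodes that hold more than 1 cell, were scored against simulated ones with scikit-learn 1.9.0, and the 172 and 123 barcodes marked were kept, with an alternative without them.

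Levels are UMIs per 1000000 UMIs of a class, with exact Poisson intervals. Ratios have exact conditional binomial intervals and were given from 20 UMIs in both libraries together, and shares have Clopper-Pearson intervals (scipy 1.17.1), all at 95%. A count of 0 was given the limit of 3 counts. UMIs of a gene clump in cells, so the true error is larger than the intervals. No test was made, since each group is 1 library. The computation was tested on simulated counts of 1 class, drawn without clumping in cells. That test cannot show how well the intervals cover the error in these data. All 4 genes were described in every class, and the 30 pathway genes by counts and, where past 2-fold in a class in which *Tnfsf11* or *Tnfrsf11b* had at least 50 UMIs, by name. The nearest genes are the 5 with the highest Pearson r among genes with at least 200 UMIs. The members, marker lists and pathway lists were chosen with earlier results of these data known, and the clusters at resolution 1.2 were described after their values were seen. The lists of glucocorticoid-response and immediate early genes were set together with the pathway lists. Alternatives covered the clustering, filters, doublets, thinning, totals, weighting of cells and single cells with many UMIs, and, chosen after seeing the data, cells with a UMI of *Mepe* or *Mmp13* left out. Coordinates are those of GENCODE M21 (GRCm38), matched by gene identifier.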

Additional observations from a re-analysis of the deposited data

Results flagged for a closer look

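Barcodes left out of the comparisons held UMIs of these genes above the limit that a count of 0 allows, and they have no comparison of their own. The 1 cluster of 193 barcodes left out of the untreated library held 25 UMIs of *Tnfrsf11b*, at 47.6 CPM [30.8, 70.2], and 20 UMIs of *Csf1*, at 38.1 CPM [23.2, 58.8]. The 1 cluster of 239 barcodes left out of the calcitriol library held 5 UMIs of *Tnfsf11*, at 7.34 CPM [2.38, 17.1], 41 of *Tnfrsf11b*, at 60.2 CPM [43.2, 81.6], 44 of *Csf1*, at 64.6 CPM [46.9, 86.7], and 6 of *Il34*, at 8.81 CPM [3.23, 19.2]. Their median depths were 1475 and 1601 UMIs. Barcodes with under 200 genes held 8 UMIs of *Tnfrsf11b* in the untreated library, at 0.683 CPM [0.295, 1.34], and 15 in the calcitriol library, at 4.57 CPM [2.56, 7.54]. None of these barcodes has a cell type, and with 1 library per group no library could be compared with others of its group.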

How the results depend on the processing

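The alternatives changed 1 choice at a time, and values are given here where they moved by more than the main interval, untreated before calcitriol where both libraries moved. No alternative could be judged against replicate spread. The balance of *Tnfsf11* and *Tnfrsf11b* in periosteal precursor-like, mature osteoblast-like, osteocyte-like, chondrocyte-like and fibroblast-like cells moved in 57 of 111 recomputed values, and the log2 ratios of these genes in 36 of 129. None of these *Tnfsf11* or *Tnfrsf11b* ratios past 2-fold changed sign. For the other members and classes 276 of 311 ratios stayed within the main interval. Of all ratios whose main interval lay past 0, 19 recomputed values had the opposite sign, 1 of *Tnfsf11*, 8 of *Tnfrsf11b*, 8 of *Csf1* and 2 of *Il34*. Of the ratios past 2-fold, only that of *Csf1* in osteocyte-like cells did so, at -0.12 with all variable genes, -0.050 at resolution 0.5, -0.040 with 20 principal components and -0.15 without integration. *Csf1* did so in periosteal precursor-like cells (-0.40 after thinning) and in tendon-like cells (-0.15 without integration, -0.25 after thinning and -0.060 as a mean over cells), and *Il34* after thinning in superficial articular chondrocyte-like (-0.26) and tendon-like cells (0.068). The balance of the tendon-like class lay between 0.168% and 12.2% in the untreated and between 1.04% and 26.0% in the calcitriol library. Without integration, 119 untreated and 129 calcitriol tendon-like cells, with 31 and 62 *Tnfsf11* UMIs, fell in the periosteal precursor-like class. What moved the balance under the other settings was not tested.

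With all variable genes in the clustering, the balance was 87.8% and 85.1% in periosteal precursor-like cells, 19.9% and 14.7% in mature osteoblast-like cells, 2.39% and 3.36% in osteocyte-like cells and 0.582% and 6.07% in chondrocyte-like cells, the log2 ratio of *Tnfsf11* was 0.68 in mature osteoblast-like cells and 3.41 in chondrocyte-like cells, and the log2 ratio of *Tnfrsf11b* was 0.10 in osteocyte-like cells. At resolution 0.5, the balance was 57.7% and 41.5% in periosteal precursor-like cells, 2.39% and 3.35% in osteocyte-like cells and 0.582% and 5.99% in chondrocyte-like cells, the log2 ratio of *Tnfsf11* was 3.45 in chondrocyte-like cells, and the log2 ratio of *Tnfrsf11b* was 1.14 in periosteal precursor-like cells, 0.12 in osteocyte-like cells and 0.0047 in chondrocyte-like cells. At resolution 1.2, the balance was 88.3% and 87.2% in periosteal precursor-like cells, 2.90% in calcitriol mature osteoblast-like cells, 9.06% and 14.5% in osteocyte-like cells and 1.29% and 3.63% in chondrocyte-like cells, the log2 ratio of *Tnfsf11* was 0.36 in mature osteoblast-like cells and -0.045 in osteocyte-like cells, and the log2 ratio of *Tnfrsf11b* was 0.85 in mature osteoblast-like cells, -0.81 in osteocyte-like cells and 0.018 in chondrocyte-like cells. With 20 principal components, the balance was 59.5% and 41.7% in periosteal precursor-like cells and 0.380% and 3.66% in chondrocyte-like cells, the log2 ratio of *Tnfsf11* was 3.41 in chondrocyte-like cells, and the log2 ratio of *Tnfrsf11b* was 1.24 in periosteal precursor-like cells, 0.019 in osteocyte-like cells and 0.092 in chondrocyte-like cells. Without integration of the libraries, the balance was 18.4% and 15.3% in mature osteoblast-like cells, 2.41% and 3.10% in osteocyte-like cells and 0.551% and 5.85% in chondrocyte-like cells, the log2 ratio of *Tnfsf11* was 0.89 in mature osteoblast-like cells and 3.43 in chondrocyte-like cells, and the log2 ratio of *Tnfrsf11b* was 0.037 in osteocyte-like cells. With clusters left out past any of the 3 limits, the balance was 81.0% and 69.4% in periosteal precursor-like cells and 19.6% and 15.9% in mature osteoblast-like cells, the log2 ratio of *Tnfsf11* was 0.83 in mature osteoblast-like cells, and the log2 ratio of *Tnfrsf11b* was 0.98 in periosteal precursor-like cells. With at least 500 genes per barcode, the balance was 88.3% and 87.3% in periosteal precursor-like cells and 20.8% and 15.4% in mature osteoblast-like cells, and the log2 ratio of *Tnfsf11* was 0.70 in mature osteoblast-like cells. Without doublets, the balance was 8.12% in calcitriol chondrocyte-like cells and 38.6% in calcitriol fibroblast-like cells, and the log2 ratio of *Tnfrsf11b* was -0.31 in chondrocyte-like cells and -1.23 in fibroblast-like cells. With cells thinned to 2000 UMIs, the balance was 81.3% in untreated periosteal precursor-like cells, 14.3% and 10.2% in mature osteoblast-like cells, 4.44% in calcitriol osteocyte-like cells and 11.7% in calcitriol chondrocyte-like cells, the log2 ratio of *Tnfsf11* was 1.78 in osteocyte-like cells, and the log2 ratio of *Tnfrsf11b* was 0.79 in periosteal precursor-like cells, -0.036 in osteocyte-like cells and -0.44 in chondrocyte-like cells. With the mean of the cells' own CPM, the balance was 67.8% in calcitriol periosteal precursor-like cells, 3.40% in calcitriol osteocyte-like cells and 35.5% in calcitriol fibroblast-like cells, and the log2 ratio of *Tnfrsf11b* was 0.94 in periosteal precursor-like cells, 0.89 in mature osteoblast-like cells and -0.27 in chondrocyte-like cells. Without the cell with the most UMIs, the balance was 79.1% in calcitriol periosteal precursor-like cells, 1.76% in untreated mature osteoblast-like cells and 0.877% in untreated osteocyte-like cells, and the log2 ratio of *Tnfsf11* was 1.25 in osteocyte-like cells. With osteocyte-like cells chosen by UMIs of 2 of 3 markers, the balance was 3.65% and 7.01% in osteocyte-like cells, the log2 ratio of *Tnfsf11* was 1.12 in osteocyte-like cells, and the log2 ratio of *Tnfrsf11b* was 0.13 in osteocyte-like cells. Without cells that held a UMI of *Mepe* or *Mmp13*, a setting chosen after seeing the data, the balance was 0.521% and 1.12% in mature osteoblast-like cells and 36.9% in calcitriol fibroblast-like cells, and the log2 ratio of *Tnfrsf11b* was 1.63 in mature osteoblast-like cells and -1.11 in fibroblast-like cells.

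Genes at least 2-fold higher or lower numbered 554 higher and 448 lower in periosteal precursor-like, 453 and 331 in mature osteoblast-like, 671 and 315 in osteocyte-like, 717 and 629 in chondrocyte-like and 527 and 494 in fibroblast-like cells with at least 20 UMIs per gene. With at least 200 UMIs per gene they numbered 106 higher and 124 lower, 59 and 41, 62 and 48, 160 and 184, and 139 and 153 in the same classes, where fewer genes were tested. Mature osteoblast-like cells formed no class of their own at resolution 0.5 or with 20 principal components, so no value was given for them there. No paired analysis was possible because each group has 1 library. For *Il34* and for *Tnfsf11* outside the periosteal class, the number of UMIs limits what can be seen, and a level under the limit of 3 counts was not detectable at this depth.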
